A study of Mus musculus with 4 samples.

Results

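The 8 genes described here run the machinery that takes a cell through G1 and into DNA replication. They are the D cyclin genes Ccnd1, Ccnd2 and Ccnd3, the kinase genes Cdk4 and Cdk6, the inhibitor genes Cdkn1a (p21) and Cdkn1b (p27), and Rb1, which encodes the retinoblastoma protein. They were taken by name from the count tables, where all 8 were found among 26041 gene symbols. Testis cells of 4 wk old mice were sorted singly for tdTomato, expressed from a knock-in at Eomes that also encodes iCreERt2. That allele was made in B6N embryonic stem cells and its chimeras were crossed to B6N mice. The strain background of the sorted Plzf +/+ and Plzf lu/lu mice is not stated. Transcripts were counted at their 3′ end, each molecule by its unique molecular identifier (UMI). The groups were Plzf +/+ mice and Plzf lu/lu mice, which are homozygous for the luxoid mutation of Plzf (symbol Zbtb16); the Eomes-tdTomato allele is common to both, and littermates without it served only to set the sort gate. The Plzf +/+ cells came from plates 1, 2 and 4 (317, 303 and 277 cells) and the Plzf lu/lu cells from plates 3 and 4 (314 and 38 cells). Each plate and genotype is treated as 1 library. The labels name no animals, so p-values measure the spread between these libraries, which may be technical, and only plate 4 held both genotypes.

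In G1, D cyclins bind CDK4 or CDK6, and the active kinase phosphorylates the retinoblastoma protein, which then releases E2F factors to switch on genes for DNA synthesis. p21 and p27 bind cyclin and kinase complexes and can block the kinases that act later, in late G1 and S phase. In the mouse testis, Ccnd2 is known as a D cyclin gene of spermatogonia. PLZF is a transcriptional repressor that is needed to maintain the germline stem cell pool.

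Libraries held 254514 to 2608702 UMIs. Cells held a median of 5908 UMIs in Plzf +/+ and 6272 in Plzf lu/lu, with a range of 612 to 95069 over all cells. Zbtb16 itself had 431 of 6506907 UMIs in Plzf +/+ and 49 of 2863216 UMIs in Plzf lu/lu cells. All 9 markers of undifferentiated spermatogonia were detected in both genotypes, with a summed level of 823 to 844 CPM (UMIs per 1000000 of the library) in Plzf +/+ and 558 to 647 in Plzf lu/lu libraries. A UMI of Gfra1, the GDNF receptor gene of undifferentiated spermatogonia, was found in 58.1% to 66.0% of the cells of the Plzf +/+ libraries and in 37.9% and 39.5% of those of Plzf lu/lu. The 9 Sertoli cell markers in the tables were all detected in both genotypes and summed to 191 to 246 CPM in Plzf +/+ against 1020 and 593 in Plzf lu/lu. Spermatid transcripts summed to 1689, 6861 and 6184 CPM in Plzf +/+ and 2408 and 7163 in Plzf lu/lu, in plate order. On plate 4, 5 cells of the Plzf +/+ table lie in wells that the label gives to Plzf lu/lu, and the 2 libraries of that plate share no cell barcode. Barcodes mark wells and were used again on each plate, so 358 of 376 occur in 2 or more libraries.

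Cdk4 and Cdk6 encode the alternative kinase partners of the D cyclins, and their transcript levels lay far apart in these cells. The bases before each start site in the RefSeq promoter table were searched for the canonical E box CACGTG. This sequence, known as a site for MYC and its partners, is repeated before Cdk4. Whether it bears on the level of either gene was not tested. In GRCm38.p6, RefSeq places the 250 bases before Cdk4 at chr10:127063285-127063534 and those before Cdk6 at chr5:3343643-3343892, both on the plus strand. The Cdk4 window ends where the gene begins, whereas the Cdk6 window lies inside the outer limits RefSeq gives that gene (chr5:3341004-3531008). Capitals mark CACGTG, which reads the same on both strands.
Cdk4: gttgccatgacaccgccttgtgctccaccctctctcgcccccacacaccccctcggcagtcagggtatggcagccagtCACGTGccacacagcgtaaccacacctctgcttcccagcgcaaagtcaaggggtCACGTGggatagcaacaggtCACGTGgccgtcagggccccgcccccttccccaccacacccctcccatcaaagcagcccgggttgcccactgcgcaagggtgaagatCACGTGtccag
Cdk6: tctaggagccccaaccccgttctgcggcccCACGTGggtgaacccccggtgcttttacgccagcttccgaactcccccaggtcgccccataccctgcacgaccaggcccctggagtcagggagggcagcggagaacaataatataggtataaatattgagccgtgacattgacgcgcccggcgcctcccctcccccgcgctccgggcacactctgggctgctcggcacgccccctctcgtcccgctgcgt
The Cdk4 window held 4 copies and the Cdk6 window 1. Of 32851 RefSeq promoter windows of this length, 6.02% held at least 1 copy and 0.0213% (7 windows) held 4 or more. Of the 8 genes, 5 had an entry in the promoter table (Ccnd3, Cdk4, Cdk6, Cdkn1a and Cdkn1b), and the windows of Ccnd3, Cdkn1a and Cdkn1b held none. In Plzf +/+ cells the mean levels of Ccnd3, Cdkn1a and Cdkn1b were 88.0, 19.5 and 15.1 CPM. Those of Cdk6 and Cdk4 were 5.78 and 315 CPM.

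In Plzf +/+ cells the order of the levels ran from Cdk4 through Ccnd2 to the rare Cdk6 and inhibitor transcripts. All levels below are CPM, each UMI counted from the 3′ end, with the library total scaled by TMM (the trimmed mean of M values, which corrects library totals for composition), so they are per molecule and not per base. Cdk4 stood at 315 ± 24.5 (SD, n = 3) and Ccnd2 at 252 ± 24.3, and their libraries did not overlap. Ccnd1 at 93.8 ± 11.4 and Ccnd3 at 88.0 ± 5.58 overlapped, so their order is not resolved. Rb1 followed at 47.8 ± 2.18. Cdkn1a at 19.5 ± 4.16 and Cdkn1b at 15.1 ± 2.95 overlapped, and Cdk6 was lowest at 5.78 ± 1.02. Cdk4 was found in 688 of 897 Plzf +/+ cells (76.7%, exact Clopper-Pearson 95% interval 73.8 to 79.4) and Cdk6 in 35 (3.90%, 2.73 to 5.39). A Plzf +/+ cell held UMIs of 2.73 of the 8 genes on average, and 45 cells (5.02%) held none. Intervals cover counting error only.

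**Figure D1:**
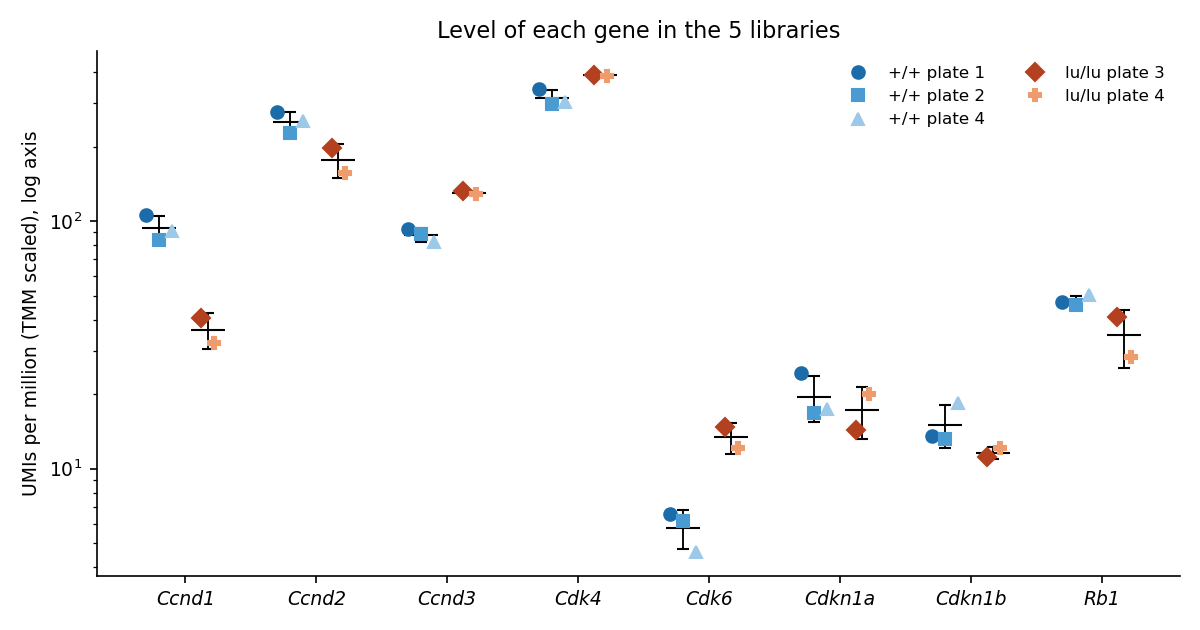
Level of each of the 8 genes in CPM (TMM scaled, log axis) in the 3 Plzf +/+ libraries (blue) and the 2 Plzf lu/lu libraries (red and orange), with the mean and SD of each genotype in black. Both Plzf lu/lu libraries lie below every Plzf +/+ library for Ccnd1, Ccnd2, Cdkn1b and Rb1 and above every one for Ccnd3, Cdk4 and Cdk6. Of all 13728 genes tested, 16% lie below and 18.5% above in this way, and of the 8 genes only Ccnd1 passed the test.

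The comparison of genotypes asks which of these genes differ in sorted cells that lack normal PLZF. Ccnd1 fell, and it was the only one of the 8 genes to pass the test. The fold changes of Ccnd2 and Ccnd3 had opposite signs and did not pass. Over all 13728 genes tested with edgeR's quasi-likelihood test on UMIs summed per library, 0.816% were called in either direction and 0.233% were called lower in Plzf lu/lu, at a Benjamini-Hochberg adjusted p under 0.05. The median log2 fold change over the 8 genes was -0.34, with 1 of 8 called, against 0.00 over all genes tested. In bulk sums of this kind, fewer cells of a type and less RNA per cell cannot be told apart.

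Ccnd1, the D cyclin gene best known as a target of growth factor signalling, lies at chr7:144929931-144939831 (GRCm38.p6). Its UMIs numbered 227 (plate 1), 204 (plate 2) and 178 (plate 4) in Plzf +/+, against 102 (plate 3) and 8 (plate 4) in Plzf lu/lu. The scaled levels were 106, 83.8 and 91.3 CPM in Plzf +/+ and 40.6 and 32.2 in Plzf lu/lu. The genotypes did not overlap; 16% of all genes tested likewise had both Plzf lu/lu levels below every Plzf +/+ level. The mean was 2.57-fold lower in Plzf lu/lu (log2 fold change -1.29 ± 0.21 SE, edgeR adjusted p = 0.0423, n = 3 and 2). On plate 4 alone the ratio of Plzf lu/lu to Plzf +/+ was 0.353 (counting interval 0.150 to 0.710). Cells with at least 0.5% of their UMIs in spermatid genes, or with UMIs of at least 3 markers of a somatic cell type, made up 6.31%, 16.8% and 13.0% of the cells of the Plzf +/+ libraries and 19.4% and 18.4% of those of Plzf lu/lu. The call held without these cells rich in spermatid or somatic transcripts (-1.37, edgeR adjusted p = 1.09e-05), but it was lost without Plzf +/+ plate 2 (edgeR adjusted p = 0.143) or plate 4 (0.202), without Plzf lu/lu plate 3 (0.346) or plate 4 (0.161), and within Gfra1-positive cells (-1.09, 0.159) or Gfra1-negative cells (-1.55, 0.0922). The fold change lay between -1.56 and -1.09 in all of these fits. The fit without cells rich in spermatid or somatic transcripts called 1323 of 12327 genes, against 112 of 13728 with all cells. In the fit of Gfra1-positive cells the median of all genes was -0.13.

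Ccnd1 was lower in the number of cells that held it as well as in its CPM. It was found in 341 of 897 Plzf +/+ cells (38.0%, 34.8 to 41.3) and in 75 of 352 Plzf lu/lu cells (21.3%, 17.1 to 26.0). When each cell was thinned to 2000 UMIs, which kept 834 of the 897 cells of Plzf +/+ and 333 of the 352 of Plzf lu/lu, the shares were 17.3%, 14.5% and 13.5% in the Plzf +/+ libraries and 6.91% and 6.90% in Plzf lu/lu. The libraries of the genotypes again lay apart, and how many of all genes did so at this depth was not computed. Cells that held 2 or more Ccnd1 UMIs made up 16.9% of Plzf +/+ and 5.68% of Plzf lu/lu cells.

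Ccnd2 (chr6:127125162-127152188) held most of the D cyclin UMIs in both genotypes. It had 588, 552 and 496 UMIs in Plzf +/+ and 494 and 39 in Plzf lu/lu, or 275, 227 and 254 against 197 and 157 CPM. All Plzf +/+ libraries lay above both Plzf lu/lu libraries, but the difference did not pass the test (-0.48 ± 0.17, edgeR adjusted p = 0.244). Among the alternatives run, it passed only without the cells rich in spermatid or somatic transcripts (-0.52, edgeR adjusted p = 0.0135), where 1323 of 12327 genes were called. Within Gfra1-positive cells it was -0.18 (edgeR adjusted p = 0.687). At 2000 UMIs per cell, 38.4%, 34.1% and 37.5% of Plzf +/+ cells and 23.7% and 13.8% of Plzf lu/lu cells held a Ccnd2 UMI.

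Ccnd3 (chr17:47505051-47599689), the third D cyclin gene, had higher levels in Plzf lu/lu at full depth. It had 199, 216 and 160 UMIs in Plzf +/+ and 331 and 32 in Plzf lu/lu, or 93.1, 88.7 and 82.0 against 132 and 129 CPM. Both Plzf lu/lu libraries lay above all Plzf +/+ libraries, which was so for 18.5% of all genes tested, and the difference did not pass the test (0.57 ± 0.16, edgeR adjusted p = 0.155). It passed without the cells rich in spermatid or somatic transcripts (0.53, edgeR adjusted p = 0.0238) and without Plzf +/+ plate 1 (0.61, 0.0256). Those fits called 1323 of 12327 and 1387 of 13631 genes. At 2000 UMIs per cell its level overlapped between genotypes, at 106, 103 and 89.6 CPM in Plzf +/+ and 138 and 86.2 in Plzf lu/lu. The share of cells that held it overlapped as well, at 17.1% to 19.9% in Plzf +/+ and 21.4% and 13.8% in Plzf lu/lu. Cells with a Ccnd3 UMI held 1.49 of them on average in Plzf +/+ and 2.03 in Plzf lu/lu, before thinning.

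**Figure D2:**
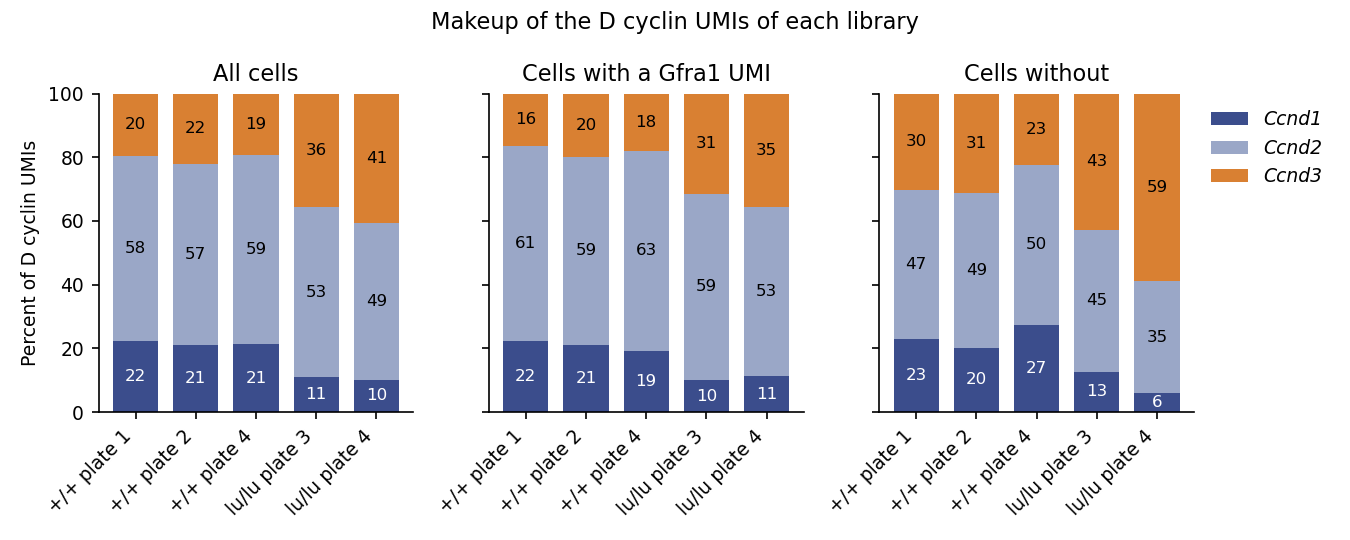
Percent of the D cyclin UMIs of each library that belong to Ccnd1, Ccnd2 and Ccnd3, in all cells and in cells with or without a Gfra1 UMI. In all cells Ccnd3 holds 19.2% to 22.2% in the Plzf +/+ and 35.7% and 40.5% in Plzf lu/lu, and Ccnd1 holds 21.0% to 22.4% against 11.0% and 10.1%.

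The makeup of the D cyclin UMIs sets these genes against each other inside a library, where library scaling plays no part. Ccnd1 held 22.4%, 21.0% and 21.3% of the D cyclin UMIs of the Plzf +/+ libraries and 11.0% and 10.1% of those of Plzf lu/lu. Ccnd3 held 19.6%, 22.2% and 19.2% in Plzf +/+ and 35.7% and 40.5% in Plzf lu/lu. Ccnd2 stayed the largest, at 58.0%, 56.8% and 59.5% against 53.3% and 49.4%. There were thus 0.877, 1.06 and 0.899 Ccnd3 UMIs for each Ccnd1 UMI in Plzf +/+ and 3.25 and 4.00 in Plzf lu/lu, and the mean ratio was 3.83 times higher in Plzf lu/lu. With 3 libraries against 2 there are 10 ways to split them, and the two-sided exact permutation p was 0.2, the smallest this design allows.

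Ccnd3 held the larger share in Plzf lu/lu within both Gfra1 classes, again with no overlap of libraries. This makeup was chosen after seeing the data. For the makeup, the D cyclin sums and thinned cells, the share of all genes without overlap was not computed. In Gfra1-positive cells Ccnd3 held 18.1 ± 1.81% in Plzf +/+ (SD, n = 3) and 33.5 ± 2.86% in Plzf lu/lu (n = 2), and in Gfra1-negative cells 28.0 ± 4.74% and 50.8 ± 11.3%. The level of Ccnd3 itself overlapped in Gfra1-negative cells, at 115, 117 and 78.4 CPM in Plzf +/+ and 115 and 78.5 in Plzf lu/lu (log2 fold change 0.05, edgeR adjusted p = 0.989), where Ccnd1 was at -1.55 and Ccnd2 at -0.80. In Gfra1-positive cells the Ccnd3 fold change was 0.81 (edgeR adjusted p = 0.169). The Plzf lu/lu value of Gfra1-negative cells rests on 17 D cyclin UMIs for plate 4. Without cells rich in spermatid or somatic transcripts the Ccnd3 share was 19.5 ± 0.865% against 37.4 ± 2.76%. The sum of the D cyclins was 434 ± 36.7 CPM in Plzf +/+ and 333 ± 31.8 in Plzf lu/lu without TMM scaling, and in Gfra1-positive cells 469 ± 53.2 and 474 ± 31.9, which overlapped. In Gfra1-negative cells this sum was 356 ± 29.0 and 197 ± 92.9 CPM, and on thinned cells 468 ± 19.5 and 269 ± 112, both without overlap. On cells thinned to 2000 UMIs the Ccnd3 share was 21.3 ± 2.24% against 42.5 ± 4.12%, and the Ccnd1 share overlapped, with the Plzf lu/lu value of plate 4 resting on 2 of 11 UMIs.

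At equal depth most cells held UMIs of no more than 1 D cyclin gene. Of the cells thinned to 2000 UMIs, 348 of 834 Plzf +/+ cells (41.7%) held UMIs of 1 D cyclin gene, 101 (12.1%) of 2 and 12 (1.44%) of all 3. In Plzf lu/lu these were 107 of 333 (32.1%), 26 (7.81%) and 3 (0.901%). Ccnd1 or Ccnd2 was found in 47.6%, 42.8% and 44.6% of the cells of the Plzf +/+ libraries and in 27.0% and 20.7% of those of Plzf lu/lu, with no overlap. Cells with Ccnd3 as their only D cyclin made up 10.7%, 9.06% and 10.8% in Plzf +/+ and 14.5% and 13.8% in Plzf lu/lu. The last value is 4 of 29 cells.

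**Figure D3:**
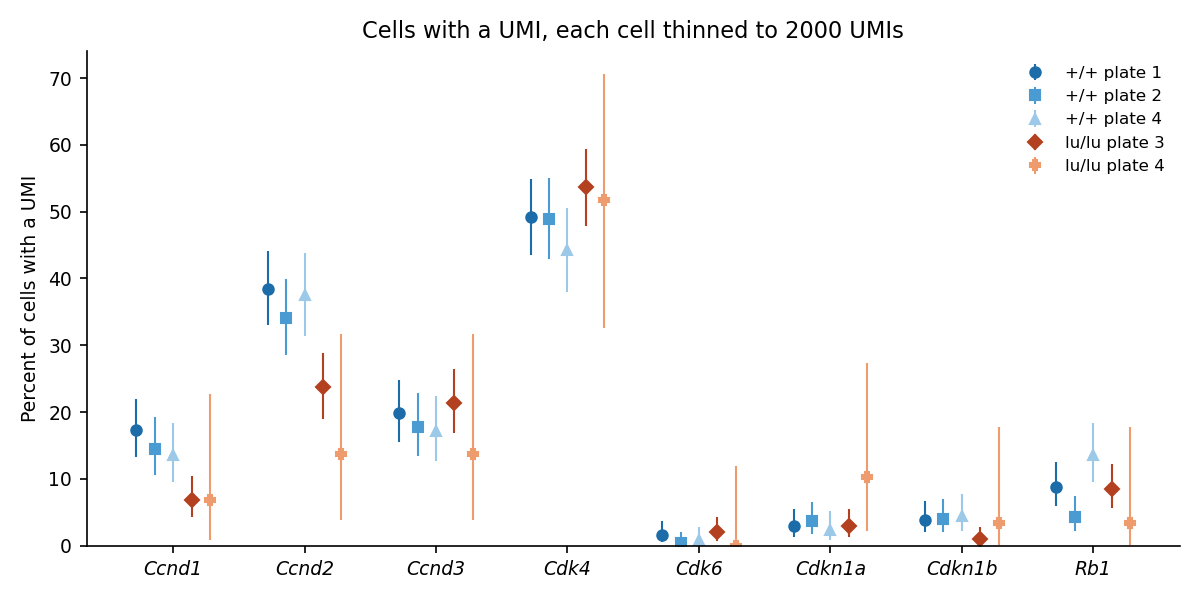
Percent of cells with at least 1 UMI of each gene after each cell was thinned to 2000 UMIs, by library, with exact 95% binomial intervals. For Ccnd1, Ccnd2 and Cdkn1b both Plzf lu/lu libraries lie below the 3 Plzf +/+ libraries, and for Cdk4 both lie above. The Plzf lu/lu shares of Cdkn1b rest on 3 and 1 cells. Plzf lu/lu plate 4, with 29 such cells, has the widest intervals.

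The kinases were both higher in Plzf lu/lu at full depth, without passing the test. Cdk4 (chr10:127063535-127067288) had 343, 298 and 304 CPM in Plzf +/+ and 390 and 386 in Plzf lu/lu (log2 fold change 0.30 ± 0.13, edgeR adjusted p = 0.365). Within Gfra1-negative cells its sign turned, at -0.02. On cells thinned to 2000 UMIs the Cdk4 libraries still lay apart, at 352, 368 and 301 CPM in Plzf +/+ and 421 and 379 in Plzf lu/lu. The shares of cells with a Cdk4 UMI were then 49.2%, 48.9% and 44.2% against 53.6% and 51.7%. Cdk6 had 14, 15 and 9 UMIs in Plzf +/+ and 37 and 3 in Plzf lu/lu, or 6.55, 6.16 and 4.61 against 14.7 and 12.1 CPM. The Cdk6 difference was larger but far less precise (1.27 ± 0.41, edgeR adjusted p = 0.217), and on plate 4 alone the counting interval of the ratio ran from 0.455 to 10.5. Among the alternatives run, it passed only without the cells rich in spermatid or somatic transcripts (1.65, edgeR adjusted p = 0.0239), where 1323 of 12327 genes were called. On cells thinned to 2000 UMIs the Cdk6 libraries overlapped, with 5, 1 and 2 UMIs left in Plzf +/+ and 6 and 0 in Plzf lu/lu, or a mean of 4.65 against 4.93 CPM, so no difference was detectable at that depth. At full depth Cdk6 made up 1.50% to 2.02% of the UMIs of both kinases in Plzf +/+ and 3.65% and 3.03% in Plzf lu/lu.

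No genotype difference of the inhibitor genes or of Rb1 passed the test over all cells. Cdkn1a (chr17:29090979-29100722) had 52, 41 and 34 UMIs in Plzf +/+ and 36 and 5 in Plzf lu/lu, and its scaled levels overlapped (-0.31 ± 0.35, edgeR adjusted p = 0.800). Without the cells rich in spermatid or somatic transcripts the difference was -1.19 and passed (edgeR adjusted p = 0.0480), where 1323 of 12327 genes were called. Cdkn1b (chr6:134920401-134925525) had 29, 32 and 36 UMIs against 28 and 3 (-0.40 ± 0.37, edgeR adjusted p = 0.732), and without the same cells it was at -1.04 (0.124). Rb1 (chr14:73192858-73325951) had 101, 112 and 98 against 103 and 7 (-0.36 ± 0.23, edgeR adjusted p = 0.576). For Cdkn1b and Rb1 neither Plzf lu/lu library reached the lowest scaled level of Plzf +/+, at 11.2 and 12.1 CPM for Cdkn1b and 41.0 and 28.2 for Rb1. Cdkn1a and Cdkn1b UMIs met in 1 of 834 Plzf +/+ cells and in 0 of 333 Plzf lu/lu cells at 2000 UMIs per cell. Taking 3 counts as the limit for a count of 0, this allows a share of up to 0.901%, and the exact 95% interval reaches 1.10%.

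A list of 38 other genes of the G1 to S pathway was examined in the same fit. Of these, 37 were tested and none was called in either direction with edgeR, with 1 higher and 1 lower at an unadjusted p under 0.05 (1943 of all 13728 genes tested), and DESeq2 called 0, with 0 at an unadjusted p under 0.05. Their median log2 fold change was 0.04, with 21 higher and 16 lower. The largest differences were those of Cdkn2a, an inhibitor gene of CDK4 and CDK6 (0.86 ± 0.64, with no UMI on Plzf lu/lu plate 4), and Ccne1, the gene of cyclin E1 (0.78 ± 0.35), upward, and of Tfdp1, an E2F partner gene (-0.64 ± 0.23), and E2f4 (-0.48 ± 0.27), downward. The edgeR adjusted p of these 4 genes was between 0.257 and 0.644.

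The second set of comparisons asks in which cells of a library these genes are high. Cells were classed within each library, and the classes were compared with the library as a block, over both genotypes. S-rich and G2M-rich cells are the 25% of cells of each library with the highest share of UMIs in 40 S phase and 44 G2 and M phase genes. The classes are ranges of a continuous share, since 136 and 167 cells lay within 10% of the limit. None of the 8 genes is on these lists.

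S-rich cells, 312 of 1249, held more of Ccnd1, Ccnd2, Cdk4 and Cdkn1a. This is 4 of the 7 genes tested (Cdk6 did not pass the filter on low counts), against 22.9% of all 10713 genes tested that were called in either direction. Cdk4 stood at 463, 501 and 386 CPM in the S-rich cells of Plzf +/+ and at 532 and 680 in those of Plzf lu/lu. In the other cells it was 317, 257 and 286 in Plzf +/+ and 345 and 292 in Plzf lu/lu. Cdk4 was thus higher in the S-rich cells of every library (log2 fold change 0.70 ± 0.10, edgeR adjusted p = 1.37e-05).

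Ccnd2 rose in S-rich cells of all 5 libraries, from 259, 200 and 242 to 360, 368 and 316 CPM in Plzf +/+ and from 162 and 105 to 301 and 316 in Plzf lu/lu (0.71 ± 0.12, edgeR adjusted p = 5.56e-05). Ccnd1 also rose in all 5, from 92.5, 81.4 and 80.7 to 159, 113 and 132 in Plzf +/+ and from 37.2 and 27.6 to 52.0 and 47.4 in Plzf lu/lu (0.63 ± 0.14, edgeR adjusted p = 0.00185). S-rich cells of Plzf lu/lu thus held less Ccnd1 than the other cells of Plzf +/+. On plate 4 the Plzf lu/lu values of Ccnd1 rest on 3 UMIs in 10 S-rich cells and 5 UMIs in 28 other cells. Ccnd3 (0.15 ± 0.15, edgeR adjusted p = 0.514) and Rb1 (0.11 ± 0.19, 0.748) did not pass. Pooled over libraries, S-rich cells were deeper, with a median of 6897 against 5699 UMIs. On Plzf lu/lu plate 4 they were shallower, at 4203.5 against 5726.5. With cells thinned to 2000 UMIs before classing, Cdk4 kept its call (0.44, edgeR adjusted p = 0.00562), and Ccnd1 (0.62, 0.113), Ccnd2 (0.27, 0.293) and Cdkn1a (0.86, 0.310) lost it. Ccnd1 also lost it without the library block (0.64, edgeR adjusted p = 0.312).

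**Figure D4:**
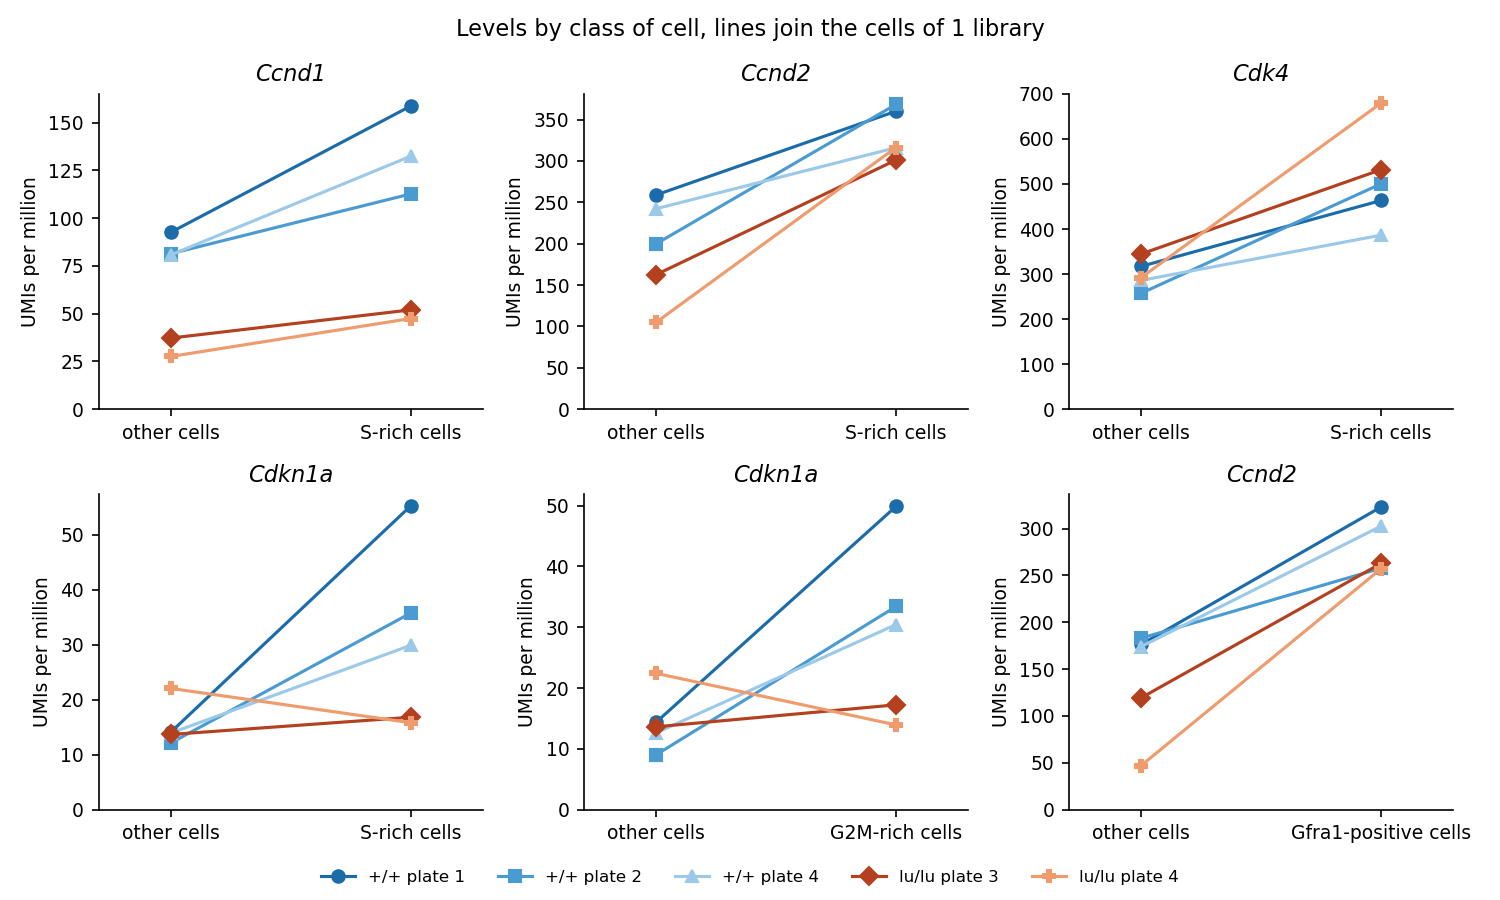
Levels in CPM (TMM scaled) of Ccnd1, Ccnd2, Cdk4 and Cdkn1a in S-rich and other cells, of Cdkn1a in G2M-rich and other cells, and of Ccnd2 in Gfra1-positive and other cells; each line joins the classes of 1 library. Ccnd1, Ccnd2 and Cdk4 are higher in S-rich cells of all 5 libraries, and Cdkn1a is higher in S-rich and G2M-rich cells of the 3 Plzf +/+ libraries.

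Cdkn1a, the gene of the inhibitor p21, was higher in the cells rich in S or G2M transcripts. In the G2M-rich cells it stood at 49.9, 33.4 and 30.4 CPM in Plzf +/+ against 14.3, 9.0 and 12.6 in the other cells. In Plzf lu/lu it stood at 17.2 and 13.9 against 13.6 and 22.4. All 3 Plzf +/+ levels of G2M-rich cells lay above those of the other cells, and the Plzf lu/lu levels of the classes overlapped. The lowest share of G2M UMIs in the class was 0.695%, 0.641% and 0.641% in Plzf +/+ and 0.518% and 0.493% in Plzf lu/lu, and the summed G2M genes were at 5981, 5521 and 5685 against 4197 and 4145 CPM, so the class reached lower shares in Plzf lu/lu. The part of this in the Cdkn1a values was not tested. Over both genotypes the difference passed (1.29 ± 0.29, edgeR adjusted p = 0.00141), where 13.3% of 11442 genes were called, and it was the only one of the 8 genes to do so. It held on thinned cells (1.51, edgeR adjusted p = 0.0446) and was lost without the library block (1.26, 0.0530). In the S-rich cells Cdkn1a stood at 55.3, 35.8 and 29.9 against 14.1, 12.1 and 13.9 in Plzf +/+, and at 16.8 and 15.8 against 13.7 and 22.1 in Plzf lu/lu (1.23 ± 0.30, edgeR adjusted p = 0.00295). Without Plzf +/+ plate 1 the S-rich call was lost (0.95, edgeR adjusted p = 0.0639).

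The difference between genotypes in these Cdkn1a contrasts was tested as an interaction, after the values were seen. It was -1.45 ± 0.63 on the log2 scale for G2M-rich cells (unadjusted p = 0.0257, edgeR adjusted p = 0.835) and -1.38 ± 0.65 for S-rich cells (0.0431 and 1). Neither passed, so the contrast is not shown to differ between genotypes. The Plzf lu/lu values rest on 12 and 1 UMIs in G2M-rich cells and on 11 and 1 in S-rich cells.

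Cdkn1b, the gene of p27, did not share this pattern. It had 7, 4 and 9 UMIs in the S-rich cells of Plzf +/+ and none in the 78 and 10 S-rich cells of Plzf lu/lu, where the other cells held 28 and 3 UMIs. A count of 0 allows up to 3 UMIs, or 4.58 CPM on plate 3 and 47.4 on plate 4, against 15.3 and 16.5 in the other cells of those libraries. Over both genotypes the S-rich difference was -0.92 ± 0.46 (edgeR adjusted p = 0.167). Its interaction with genotype was -6.41 ± 2.07 (edgeR, unadjusted p = 0.00443, adjusted p = 0.947) and did not pass. The size of that value rests on the counts of 0.

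Gfra1-positive cells, 700 of 1249, held more Ccnd2 in every library. The levels were 323, 258 and 303 CPM against 176, 183 and 174 in the Gfra1-negative cells of Plzf +/+, and 263 and 257 against 119 and 47.1 in Plzf lu/lu. The Gfra1-positive cells of all 5 libraries lay above the Gfra1-negative cells of all 5. The difference missed the threshold with edgeR (0.95 ± 0.18, adjusted p = 0.0743), where 0.204% of 12263 genes were called. It passed with DESeq2 (0.96, adjusted p = 0.0125) and with edgeR on thinned cells (0.73, adjusted p = 4.95e-05), and with edgeR without Plzf +/+ plate 2 (1.03, adjusted p = 0.000545) or without Plzf lu/lu plate 4 (0.83, adjusted p = 0.0133). It missed the threshold without Plzf +/+ plate 1 (edgeR adjusted p = 0.516) or plate 4 (0.304), without Plzf lu/lu plate 3 (0.442) and without the library block (0.312). Gfra1-positive cells were deeper, with a median of 6991 against 4558 UMIs. The other 7 genes did not pass, with log2 fold changes from -1.04 for Cdk6 to 0.33 for Ccnd1.

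Whether the genotype difference depends on the Gfra1 class was tested as an interaction. None of the 8 genes passed, and of 12264 genes 1 was called by edgeR and 906 had an unadjusted p under 0.05. The interaction of Ccnd2 was 0.71 on the log2 scale (edgeR adjusted p = 0.581), and that of Ccnd3 was 0.75 (0.603).

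Cells with a UMI of Kit or Stra8, genes of differentiating spermatogonia, held less Ccnd2. Levels were 257, 199 and 183 CPM in the 86, 72 and 62 positive cells of Plzf +/+ against 296, 258 and 290 in the negative cells, and 154 and 108 against 212 and 188 in Plzf lu/lu. Positive cells were lower in all 5 libraries (-0.44 ± 0.10, edgeR adjusted p = 0.0479), where 1.29% of 11902 genes were called. The call was lost without any single library (edgeR adjusted p between 0.0513 and 0.295), with DESeq2 (0.164) and on thinned cells (0.337). Cdkn1a (-1.03 ± 0.35, edgeR adjusted p = 0.189) and Cdkn1b (-0.92 ± 0.36, 0.290) did not pass. Cdkn1a stood at 13.9 CPM in both classes of Plzf lu/lu plate 3, and neither gene had a UMI in the 10 positive cells of Plzf lu/lu plate 4.

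The 82 cells with at least 0.5% of their UMIs in spermatid genes held less Cdk4 and Ccnd2. Cdk4 stood at 27.9 to 211 CPM in them against 358 to 450 in the other cells, lower in all 5 libraries (-1.57, edgeR adjusted p = 2.74e-08). Ccnd2 was lower in all 5 as well (-1.33, edgeR adjusted p = 1.15e-05). Each of these genes had 1 UMI in the 3 such cells of Plzf lu/lu plate 4, or 27.9 CPM. The 9 such cells of Plzf +/+ plate 1 held 11 Cdk4 and 6 Ccnd2 UMIs. In this fit the median of all genes was -0.63 and 64.7% of 9283 genes were called, 2010 higher and 3998 lower. With DESeq2 the median was -0.36, with 2193 higher and 1840 lower. Less the median of their fit, Cdk4 was at -0.94 and Ccnd2 at -0.69 with edgeR and at -0.94 and -0.68 with DESeq2. On thinned cells Ccnd2 kept its call (-1.07, edgeR adjusted p = 0.0408) and Cdk4 did not (-0.65, 0.147), and Ccnd2 lost it without Plzf +/+ plate 1 (-0.71, 0.0543) or plate 2 (-0.98, 0.0510). Ccnd1 (-0.87, or -0.23 less the median) and Rb1 (-1.17, or -0.54 less the median) passed with edgeR and not with DESeq2 (adjusted p = 0.240 and 0.0964). Both lost the call without any single library, with edgeR adjusted p from 0.175 to 0.917 for Ccnd1, which was at -0.07 without Plzf +/+ plate 4, and from 0.0847 to 0.390 for Rb1.

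Across the cells of a Plzf +/+ library these genes were only weakly tied to each other. Over 897 cells in 3 libraries, the mean Pearson correlation of log2(UMIs per 10000 + 1) was highest for Ccnd1 with Ccnd2 (0.14), and 0.12 for Ccnd2 with Cdk4; cells share their library's depth and such sparse counts bound these values. The genes most like Ccnd2 among 8460 were Egr2, Lhx1 and Chd4 (mean r of 0.32, 0.31 and 0.31), and those most like Cdk4 were Rps2, Hmgn1 and Hspa8 (0.29, 0.28 and 0.26). For Ccnd1 they were Tex13, Barx1 and Nudc (0.22, 0.20 and 0.19). For Ccnd3 (Psmb1, Arrdc4 and Bcl7c) and Rb1 (Myo18a, App and Ap1ar) the highest mean r was 0.16 and 0.19.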

How the data were processed

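The authors deposited 1 table per genotype of raw UMI counts per gene symbol and cell, with no normalization. Per the labels' processing notes, bcl2fastq 2.18.0.12, Picard 2.9.3, STAR 2.5.4a and build GRCm38 were used; the annotation and the cell filter are not given in the sources used here. All cells were kept, and no doublet caller was run. Cell names gave plate and genotype. The study's methods used edgeR with cells as replicates; here UMIs were summed per library, or per library and class, since cells of a library are not replicates. Sums were filtered with filterByExpr, scaled by TMM and tested with glmQLFit and glmQLFTest (robust) of edgeR 4.0.16 in R 4.3.3, with Benjamini-Hochberg adjustment over all genes; DESeq2 1.42.0 was an alternative. Every class held at least 3 cells in each library. Thinning drew 2000 UMIs per cell without replacement (seed 1); log2 correlations used UMIs per 10000 with 1 added. On simulated data for the genotype comparison (13714 genes), 19.1% of genes changed by a log2 fold change of 1, 69.7% at 2 and 96.9% at 3 were recovered, with 15 false calls. The 8 genes and all lists were chosen with earlier results of these data known. Named genes are the 8 members, the 2 pathway genes with the largest log2 fold change in each direction and any called, and the 3 genes with the highest mean correlation to each member found in at least 20% of Plzf +/+ cells, among genes found in at least 10%. Alternatives were other scaling, filters, cells, depth and libraries. The makeup of the D cyclin UMIs, the interactions with the S and G2M classes, and the fits without Gfra1-positive cells, without the deepest cells or without the 5 plate 4 wells were chosen after seeing the data. Other experiments of the study were not analysed here.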

Additional observations from a re-analysis of the deposited data

Results flagged for a closer look

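The contrast of Gfra1-positive and Gfra1-negative cells ran in opposite directions in the genotypes for Cdk4, which was lower in the Gfra1-positive cells of all 3 Plzf +/+ libraries and higher in those of both Plzf lu/lu libraries. The interaction was 0.47 ± 0.20 on the log2 scale (edgeR, unadjusted p = 0.0352, adjusted p = 0.603) and did not pass. Rb1 was higher in the G2M-rich cells of all 3 Plzf +/+ libraries and lower in those of both Plzf lu/lu libraries, but on plate 4 only just (27.9 CPM from 2 UMIs against 28.0 CPM from 5), with an interaction of -0.33 ± 0.43 (edgeR, unadjusted p = 0.447, adjusted p = 0.988). Groups of 2 or 3 libraries are too small to test for a library that stands apart.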

How the results depend on the processing

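Of the single-gene values recomputed under an alternative, 398 kept direction and side of the threshold, 41 lost the threshold, 10 gained it and 35 changed sign; the causes were not tested. Genes called between genotypes (112) numbered 583 without a filter, 1323 without cells rich in spermatid or somatic transcripts, 11 in Gfra1-positive and 48 in Gfra1-negative cells, 671 without cells of over 4 times the median UMIs, and 1 to 1387 with 1 library left out (1387 without the Plzf +/+ library of plate 1). DESeq2 gave 139. Same-numbered libraries did not deviate together (r = 0.0066 and -0.015 over 13728 genes), so they share only a number; with that number as a replicate block 0 genes were called by edgeR, with 973 at an unadjusted p under 0.05, and Ccnd1 was at -1.38 (edgeR adjusted p = 0.477). Ccnd1 was at -1.09 in Gfra1-positive and -1.55 in Gfra1-negative cells and ran from -1.56 to -1.15 with 1 library left out (edgeR adjusted p 0.00262 to 0.346; over all alternatives 1.09e-05 to 0.477). Without cells rich in spermatid or somatic transcripts Ccnd2 (-0.52), Ccnd3 (0.53), Cdk6 (1.65) and Cdkn1a (-1.19) passed. With 1 library left out Ccnd3 ran from 0.47 to 0.61 and Cdkn1a from -0.45 to 0.026, and Cdk4 was at -0.025 in Gfra1-negative cells.

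Genes called by class moved as follows. For Gfra1 (25) there were 61 with DESeq2, 266 without a filter, 1 without the replicate block of libraries, 336 on thinned cells and 3 to 168 with 1 library left out. For G2M-rich cells (1526) there were 845 with DESeq2, 217 without the block, 310 on thinned cells and 891 to 1653. For S-rich cells (2454) there were 1604, 906, 526 and 1583 to 2650. For Kit or Stra8 (154) there were 74 with DESeq2, 420 without a filter, 0 without the block (edgeR; 614 at an unadjusted p under 0.05), 234 thinned and 26 to 187. For spermatid-rich cells (6008) there were 2713 without the block, 711 thinned and 2015 to 4294. The interaction with Gfra1 (1) gave 0 to 22, that with G2M (7) 2 to 29, and that with S (1) 0 to 9.

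None of the values that changed sign had passed the test. Several were not near 0 as reported, such as G2M-rich Ccnd1 (0.27), spermatid-rich Ccnd3 (-0.40) and the Gfra1 interactions of Cdkn1a (-0.57) and Cdkn1b (-0.60). By Gfra1 class these were Cdk4 (-0.0072 with DESeq2, -0.036 thinned, -0.066 to 0.096 with 1 library left out), Rb1 (0.0052 without a filter, -0.15 to 0.064), Ccnd3 (-0.12 to 0.12) and Cdkn1a (-0.69 to 0.043). In G2M-rich cells they were Ccnd1 (-0.048 thinned), Ccnd2 (-0.35 to 0.015) and Cdkn1b (-0.43 to 0.032), and in S-rich cells Ccnd3 (-0.051 to 0.26). By Kit or Stra8 they were Ccnd3 (-0.079 without a filter, -0.011 without the block, -0.22 thinned, -0.034 to 0.028), Cdk4 (0.19 thinned, -0.13 to 0.072) and Rb1 (-0.17 to 0.26). In spermatid-rich cells it was Ccnd3 (0.19 without the block, -0.30 to 0.25), and in the Gfra1 interaction Cdkn1a (-1.98 to 0.12) and Cdkn1b (-0.99 to 1.32). All 16 shares of cells with a UMI moved with thinning, and depth limits Cdk6, Cdkn1a and Cdkn1b most, with 3 to 5 UMIs each among the plate 4 Plzf lu/lu cells.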
